A study of Oryza sativa with 6 samples.

Results

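Among the annotated genes of rice (Oryza sativa) anthers, 104 were at least doubled in the dmd1 mutant, which the series labels name as the mutant line, and reached a high level there. A gene was taken when its lowest dmd1 library was at least 40 FPKM and at least 2 times its highest wild-type library. FPKM is a fragment count scaled by transcript length and library size. The 104 genes are 0.275% of the 37830 rows with rice annotation identifiers, which begin with OS, and 3.37% of the 3087 such rows at 40 FPKM or more in every dmd1 library. The rule set aside 3 identifiers in advance, of which 1 met both limits (105 OS rows with it, or 0.278%). The genes were chosen by their FPKM values in the dmd1 and wild-type libraries, so their differences between the genotypes are given as a description and not as evidence.

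The libraries were 3 from anthers of dmd1 mutant plants, set against 3 from anthers of plants labelled as the wild type of dmd1. All plants were 3 months old, and the design text places the anthers between the tetrad and the early microspore stage. The sources used here do not give the kind of dmd1 mutation, the cultivar, the growth conditions or the number of plants behind each library. The libraries of a genotype are named as biological replicates.

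In the anther, the tapetum is the innermost wall layer. It feeds the dividing meiotic cells and the young microspores, and it makes lipid precursors of the outer pollen wall. At the tetrad stage the products of meiosis are still held together by callose, and they are set free as single microspores soon afterwards. The tapetum later breaks down by programmed cell death.

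The table holds identifiers without gene names, and none of the 104 (0) matched the RefSeq gene table used here. The genes are therefore given by identifier, with no symbol, function or sequence. By convention of this annotation, such identifiers carry the chromosome in their first pair of digits and a number that rises along it. This order is used below for position and was not checked against an annotation of the build. The fragment depth of the libraries is unknown. The summed FPKM ran from 808227 to 1050340 in dmd1 and from 909365 to 1287420 in wild type. Whole anthers were sequenced, so fewer cells of a type and less RNA per cell cannot be told apart.

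Short marker lists were read as a check of the tissue, with symbols from general knowledge that were not checked against an annotation. The lists were chosen with earlier results of these data known. The 7 tapetum genes listed were all detected. Their summed levels were 3346 to 8142 FPKM in dmd1 and 34173 to 35015 FPKM in wild type. Single values ran from 2.39 to 2387 FPKM in dmd1 and from 15.3 to 14189.5 FPKM in wild type. Such sums weigh the most abundant genes most and do not give the direction of each gene. The 5 genes of green tissue summed to 89.5 to 132 FPKM in dmd1 and to 156 to 287 FPKM in wild type, and the 3 meiotic genes to 25.7 to 27.7 FPKM in dmd1 and 14.8 to 16.4 FPKM in wild type. No marker was at 0 in any library, and none of these lists' genes was among the 104. The part that a shift in cell types plays in the levels below was not tested.

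Taken as a set, the doubled genes filled far more of the dmd1 transcriptome than of the wild-type one. They held 11.02%, 10.1% and 11.7% of the summed FPKM in dmd1 libraries 1, 2 and 3, against 1.53%, 2.46% and 1.46% in wild-type libraries 1, 2 and 3. The mean level of a gene in dmd1 ran from 42.6 to 15592 FPKM, with a median of 125 FPKM. In wild type the mean ran from 0.0167 to 3447 FPKM, with a median of 32.9 FPKM. The ratio of the means, dmd1 over wild type, had a median of 4.19, with quartiles of 2.99 and 5.61. It was at least 3 in 77 genes, at least 5 in 38 and at least 10 in 5.

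**Figure D1:**
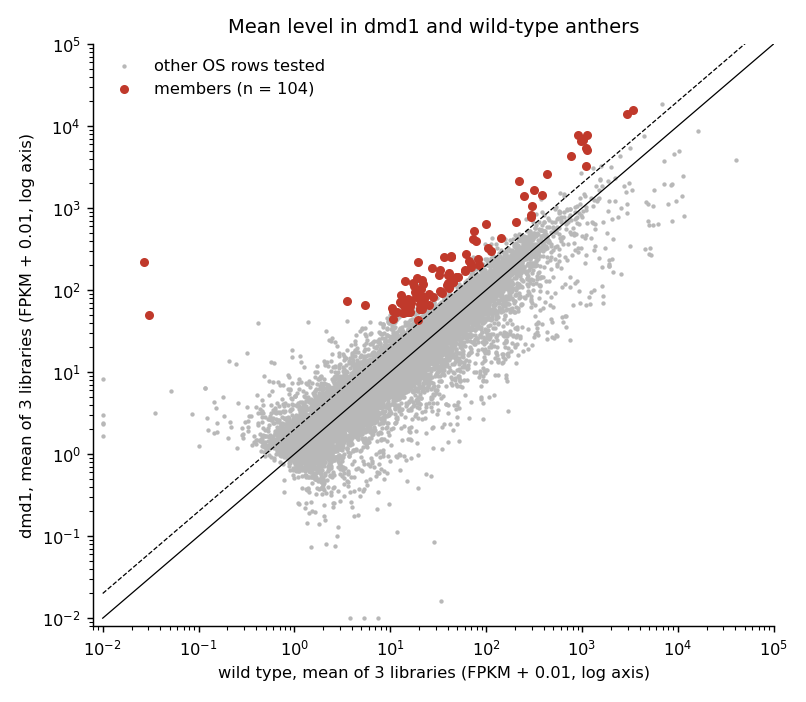
Each point is 1 OS row, with its wild-type mean on the x axis and its dmd1 mean on the y axis (FPKM + 0.01, both axes log, 3 libraries per genotype), red for the 104 doubled genes and grey for other rows tested. The solid line marks equal means and the dashed line a ratio of 2. The red points run along the upper edge of the cloud from 42.6 to 15592 FPKM in dmd1, and 2 of them lie far to the left, near 0 in wild type.

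All 104 genes were also called higher in dmd1 by limma, with limits of 1 on the log2 change and 0.05 on the adjusted p. So were 806 of all 25474 rows tested (3.16%) and 2.73% of the OS rows tested. The rule used the same contrast, so nothing is read from that count. Their median log2 change, dmd1 minus wild type, was 2.03, and the median over all rows tested was 0.12. Of the OS rows at 40 FPKM or more in every dmd1 library, 32.5% had all dmd1 libraries above all wild-type libraries. These rows include the 104 genes, and their floor is set in dmd1 only, which favours rows that are high there. With the limits of the rule turned round, 251 OS rows were at least halved in dmd1. Among other kinds of rows, 2 of 2933 beginning with MSTRG and 0 of 53250 beginning with EPlOSAG met the limits for a doubling.

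Most of the summed level came from few genes. A dmd1 mean of 1000 FPKM or more was reached by 16 genes, and they held 84.6% to 87.7% of the set's FPKM in the dmd1 libraries. The other 88 genes took 1.35% to 1.81% of the FPKM of the dmd1 libraries, against 0.341% to 0.353% of the wild-type libraries. In each dmd1 library 6 of the 10 most abundant rows of the whole table belonged to the set, against 0 in each wild-type library. The same 5 of them were in the top 10 of every dmd1 library.

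OS04G0677600 on chromosome 4 was the most abundant, at 19335, 14186 and 13256 FPKM in dmd1 libraries 1, 2 and 3, against 2215, 6274 and 1852 FPKM in wild-type libraries 1, 2 and 3. It ranked 2, 2 and 3 among all rows in the dmd1 libraries and 43, 26 and 44 in the wild-type libraries. OS01G0219500 on chromosome 1 was at 16467, 11528 and 13825 FPKM in dmd1, against 1933, 5144 and 1756 FPKM in wild type. Both genes had their highest dmd1 value in library 1 and their highest wild-type value in library 2, and the genotypes stayed more than 2 times apart, as the rule demands. The ratios of means were 4.52 for OS04G0677600 and 4.73 for OS01G0219500.

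OS05G0517400 was at 9177, 7139 and 7003 FPKM in dmd1, against 727, 1858 and 781 FPKM in wild type. OS01G0579000 was at 9234, 6514 and 7339.9 FPKM in dmd1, against 460.1, 1761 and 487 FPKM in wild type. Of the 8 genes with the highest dmd1 means, OS01G0579000 had the largest ratio of means, 8.53. OS08G0545800 was at 8301, 5513 and 6449 FPKM in dmd1, against 585, 1924 and 559.5 FPKM in wild type. OS03G0245300 was at 7732, 5795 and 6312 FPKM in dmd1, against 536 and 544 FPKM in wild-type libraries 1 and 3 and 1873 FPKM in library 2. In these 4 genes wild-type library 2 stood at 2.46 to 3.72 times the mean of the other two wild-type libraries.

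OS05G0366900 also had its highest dmd1 value in library 1 and its highest wild-type value in library 2, at 6441, 4771 and 4190.2 FPKM in dmd1, against 886, 1731 and 742 FPKM in wild type. OS02G0121300 differed in both. This gene was at 4884, 6417 and 4912 FPKM in dmd1, against 1321, 986 and 1035 FPKM in wild type, so that library 2 was highest in dmd1 and lowest in wild type.

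**Figure D2:**
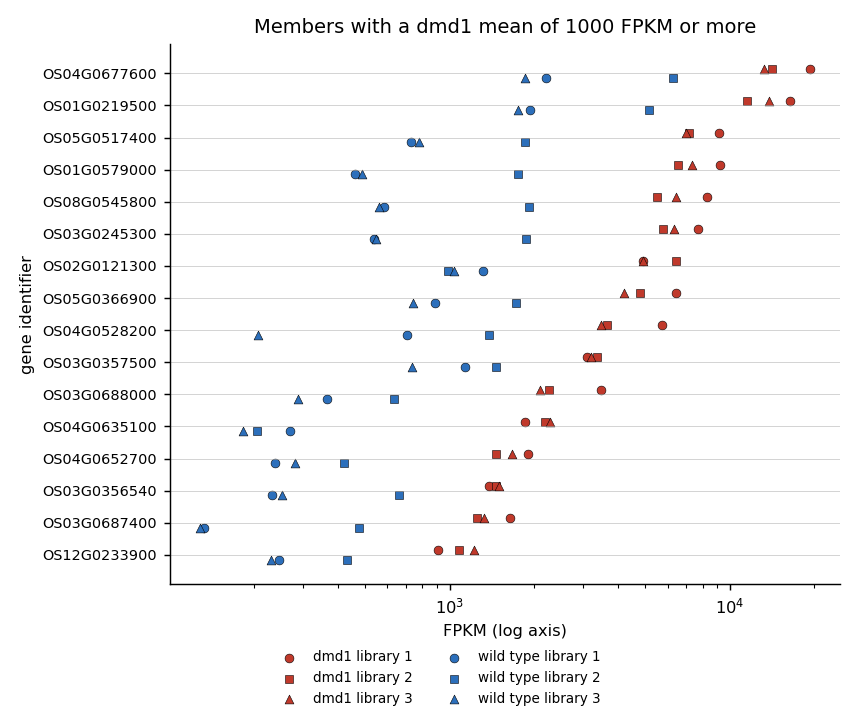
Levels of the 16 genes with a dmd1 mean of 1000 FPKM or more (x axis, FPKM, log scale; 1 line per gene, ordered by dmd1 mean), red for dmd1 and blue for wild type, with the marker shape giving the library number. The genotypes do not overlap in any line, since the rule requires it, and wild-type library 2 is the highest wild-type point in 14 of the 16.

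The genes furthest apart between the genotypes were not the most abundant. OS03G0115800 on chromosome 3 was at 217, 232 and 216 FPKM in dmd1, and it was listed at 0, 0 and 0.05 FPKM in wild-type libraries 1, 2 and 3. OS10G0360600 on chromosome 10 was at 57.5, 47.9 and 45.3 FPKM in dmd1, and it was listed at 0.022, 0 and 0.04 FPKM in wild type. No fold is given for either, because the wild-type level was at or near 0. Every other member (102 genes) was at 1 FPKM or more in each wild-type library. No OS row (0) showed the opposite, 40 FPKM or more in all wild-type libraries and 0.05 FPKM or less in all dmd1 libraries. With the level lowered to 1 FPKM, 7 OS rows were present in dmd1 and at 0.05 FPKM or less in wild type, and 4 were present in wild type and at 0.05 FPKM or less in dmd1.

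OS03G0772900 came next, at 79.0, 66.9 and 74.1 FPKM in dmd1, against 2.70, 4.53 and 3.48 FPKM in wild type, a ratio of means of 20.6. OS04G0635100 was at 1852, 2185 and 2288 FPKM in dmd1, against 270.2, 205 and 183 FPKM in wild type. It was the only gene both among the 16 abundant ones and among the 12 with the widest gap between the lowest dmd1 and the highest wild-type library, and its lowest dmd1 library was 6.85 times its highest wild-type library. OS06G0288300 was at 137, 138 and 146 FPKM in dmd1, against 18.4, 21.3 and 17.8 FPKM in wild type. Its lowest dmd1 library stood 6.44 times above its highest wild-type library.

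The other 7 of these 12 genes had gaps of 4.52 to 5.69 times. OS06G0654300 was at 126, 119 and 145 FPKM in dmd1, against 9.57, 22.4 and 11.1 FPKM in wild type. OS06G0622000 was at 257, 242 and 252 FPKM in dmd1, against 32.5, 46.2 and 29.6 FPKM in wild type. OS11G0543100 was at 125, 107 and 105 FPKM in dmd1, against 18.8, 22.5 and 12.1 FPKM in wild type. These 3 were highest in wild-type library 2. OS03G0299700, OS04G0499100 and a neighbouring pair on chromosome 11 are described further on.

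The set thinned out quickly above the limits. At least 3 times separated the lowest dmd1 from the highest wild-type library in 38 genes, at least 4 times in 16 and at least 5 times in 8. Just inside the limit of 2 were OS12G0493900 at 2.00, OS01G0857200 at 2.03 and OS05G0209500 at 2.03, and just outside were OS05G0388600 at 1.99, OS04G0530600 at 1.98 and OS03G0750700 at 1.97. For the level, OS03G0299700, OS01G0833700 and OS01G0770700 were inside with a lowest dmd1 library of 40.04, 40.9 and 42.7 FPKM. OS06G0646900, OS05G0282900 and OS06G0128700 were outside with 39.96, 39.6 and 38.1 FPKM. A wild-type library at 40 FPKM or more was seen in 51 of the 104 genes, and 4 were under 10 FPKM in every wild-type library.

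The dmd1 libraries gave similar values for most of the set. The highest over the lowest dmd1 library had a median of 1.29, with quartiles of 1.17 and 1.42, and it stayed under 1.5 in 87 of 104 genes. For the 2983 other OS rows at 40 FPKM or more in every dmd1 library the median was 1.253. In the wild-type libraries the same ratio had a median of 1.56 in the 104 genes and 1.32 in the other rows. Only 33 of the 102 genes with a wild-type value above 0 in each library spread more in dmd1 than in wild type. The rule limits the lowest dmd1 library and the highest wild-type library, so both ratios are in part fixed by it, and no test was made of either.

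By the same ratio, the most even gene was OS04G0499100, at 95.4, 94.6 and 97.4 FPKM in dmd1, against 17.2, 20.9 and 16.04 FPKM in wild type. OS01G0857200 was at 193, 186 and 192 FPKM in dmd1, against 68.8, 91.9 and 50.6 FPKM in wild type. OS10G0446400 was at 50.5, 52.9 and 53.5 FPKM in dmd1, against 9.86, 16.1 and 14.4 FPKM in wild type. With OS06G0288300 they had coefficients of variation of 1.509% to 3.32% over the dmd1 libraries.

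The least even gene was OS03G0299700, at 75.4, 80.6 and 40.04 FPKM in dmd1, against 4.87, 4.41 and 7.04 FPKM in wild type. It was the single gene with a ratio above 2 between dmd1 libraries, 2.01, and library 3 set it at the edge of the level limit. OS09G0528700 went the other way, at 83.1, 108 and 161 FPKM in dmd1, against 25.4, 15.2 and 25.4 FPKM in wild type. OS08G0453700 was at 59.1, 73.2 and 112 FPKM in dmd1, against 16.8, 22.3 and 16.1 FPKM in wild type. In both of these, dmd1 library 3 was highest. OS05G0209500 fell off towards library 3, at 101.3, 73.4 and 53.7 FPKM in dmd1, against 17.0, 26.4 and 19.7 FPKM in wild type.

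**Figure D3:**
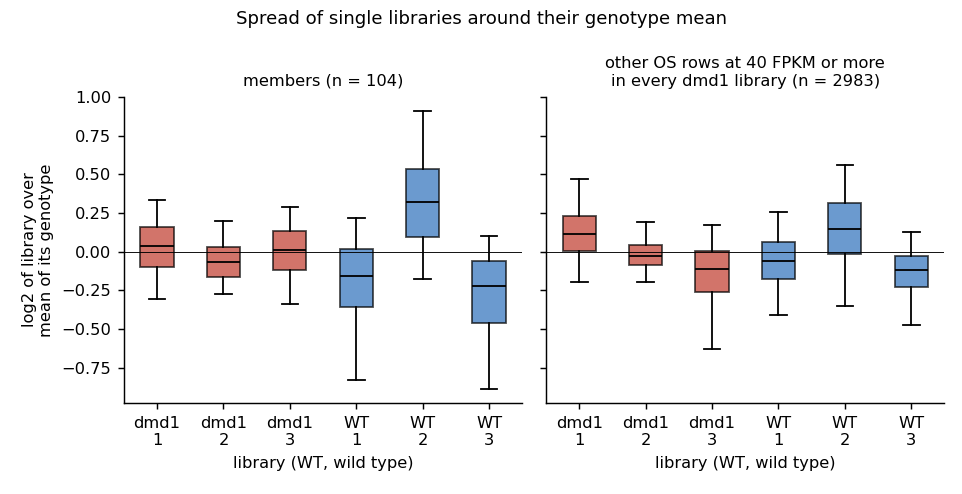
Each box gives, for 1 library, the log2 of its level over the mean of its genotype (box, quartiles; line, median; whiskers, percentiles 5 and 95), for the 104 doubled genes at left and the 2983 other OS rows at 40 FPKM or more in every dmd1 library at right. The 3 dmd1 boxes of the doubled genes lie near 0, and wild-type library 2 lies above wild-type libraries 1 and 3. In the other rows dmd1 library 1 is the highest dmd1 library in 64.5%.

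The rule sets a minimum for every dmd1 library, so no single library could bring a gene into the set. Library 1 was the highest of the dmd1 libraries in 41 genes, library 2 in 21 and library 3 in 42, while among the other rows library 1 was highest in 64.5%, library 2 in 16.8% and library 3 in 18.7%. This order depends on the scaling. With libraries set to equal FPKM totals, dmd1 library 3 was highest in 73.1% of the 104 genes and in 55.5% of the other rows. With median-of-ratios scaling it was highest in 58.7% of the 104 genes. In the other rows library 1 then still led, at 44.6% against 38.6% for library 3. The evenness moved with the scaling too. In the 104 genes the median of highest over lowest dmd1 library rose from 1.29 as deposited to 1.36 with equal totals. The same median over the wild-type libraries fell from 1.56 to 1.40, so the gap between the genotypes narrowed. For the other rows the dmd1 median was 1.253 as deposited and 1.246 with equal totals.

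Wild-type library 2 was the highest wild-type library in 81 of the 104 genes as deposited, 77.9%, against 67.4% of the other rows. With equal totals these shares were 45.2% and 24.9%, and with median-of-ratios scaling they were 69.2% and 54.3%. Across the rows tested, the deviation of wild-type library 2 from its genotype mean correlated at 0.49 with that of dmd1 library 1 and at -0.48 with that of dmd1 library 3, as a description over rows of the same libraries. The ratio of dmd1 library 1 to wild-type library 2 had a median of 3.22, and that of the means of the remaining libraries a median of 4.82. In the genes of 1000 FPKM or more these medians were 4.13 and 6.81. Wild-type library 2 was more than 2 times the mean of wild-type libraries 1 and 3 in 10 of these 16 genes, in 6 of the 45 genes between 100 and 1000 FPKM and in 7 of the 43 genes under 100 FPKM. Across 102 genes the step in wild-type library 2 and the step in dmd1 library 1 were correlated (Pearson r = 0.56, Spearman rho = 0.55, across genes that share the same libraries and are not independent). In the 2983 other rows the values were 0.56 and 0.56. The source of these steps was not tested, and no label names a batch.

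The limits were crossed by more genes when these libraries were left out. Without wild-type library 2, 167 genes met them, and without both that library and dmd1 library 1, 177 did. All 104 genes are among them by construction. With equal FPKM totals 167 genes met the limits, 102 of them from the 104, and with median-of-ratios scaling 89 did, 88 of them from the 104. The median log2 change of all rows tested was 0.12 as deposited, 0.29 after setting totals equal and 0.02 after median-of-ratios scaling. That of the 104 genes was 2.03 as deposited, 2.23 after setting totals equal and 1.91 after median-of-ratios scaling.

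The genes were spread over all 12 chromosomes. Chromosome 1 held 15 genes, chromosome 3 held 14, chromosome 4 held 13, and chromosomes 2, 5 and 9 held 11 each. Chromosome 6 had 8, chromosome 10 had 6, chromosome 12 had 5, chromosome 8 had 4, and chromosomes 7 and 11 had 3 each. Chromosome 9 had 10.6% of the genes, against 5.57% of all OS rows and 5.83% of OS rows at 40 FPKM or more in every dmd1 library. Its 95% exact binomial interval ran from 5.3995% to 18.1%. Chromosome 7 had 2.88% (interval 0.599% to 8.20%), against 7.58% of all OS rows. On all 12 chromosomes the interval, which covers counting error only, held both shares of the larger sets. Of the 16 most abundant genes, chromosome 3 held 5, chromosome 4 held 4, chromosomes 1 and 5 held 2 each, and chromosomes 2, 8 and 12 held 1 each.

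**Figure D4:**
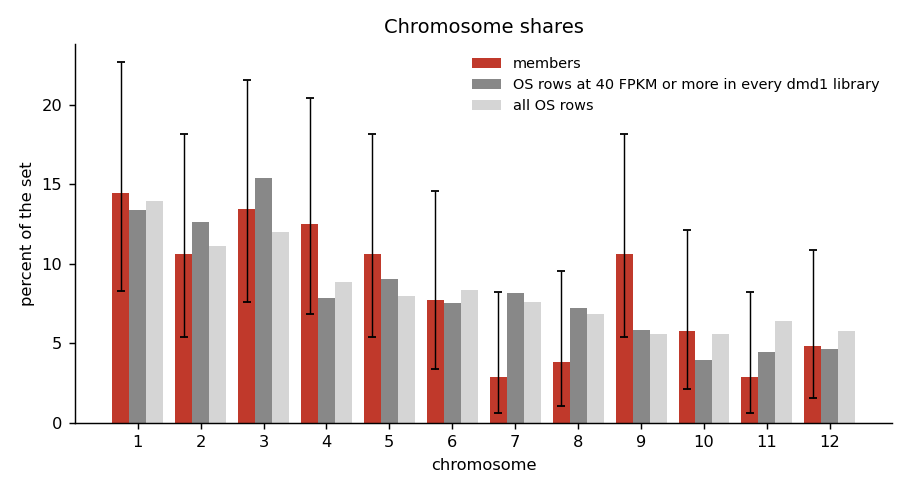
Share of each set on each chromosome (y axis, percent; x axis, chromosome), red for the 104 doubled genes with 95% exact binomial intervals, dark grey for OS rows at 40 FPKM or more in every dmd1 library and light grey for all OS rows. Chromosome 9 has 10.6% of the doubled genes and chromosome 7 has 2.88%, and every interval spans both grey bars.

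Some of the genes were next to each other. Between one gene and the next on the same chromosome lay a median of 241 OS rows, and the largest gap was 1505. Of the 92 pairs that follow each other on a chromosome, 3 were directly adjacent, and 7 had 10 or fewer rows between them. The 104 genes are 0.275% of all OS rows. Whether they lie closer together than other OS rows was not tested. OS11G0111900 and OS11G0112000 on chromosome 11 had the widest gap between genotypes of these pairs. OS11G0111900 was at 138, 141 and 90.8 FPKM in dmd1, against 20.1, 17.4 and 14.98 FPKM in wild type. OS11G0112000 was at 264, 227 and 266 FPKM in dmd1, against 48.8, 47.2 and 32.8 FPKM in wild type. The first was lowest in dmd1 library 3 and the second in dmd1 library 2, so the pair did not follow the same order.

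On chromosome 10, OS10G0149200 was at 70.1, 46.3 and 44.0 FPKM in dmd1, against 8.76, 20.7 and 6.07 FPKM in wild type, and OS10G0149400 was at 193, 159 and 172 FPKM in dmd1, against 26.0, 47.8 and 25.4 FPKM in wild type. Both were highest in dmd1 library 1 and in wild-type library 2. On chromosome 9, OS09G0461700 was at 107, 133 and 117 FPKM in dmd1, against 46.0, 41.0 and 39.7 FPKM in wild type, and OS09G0461900 was at 72.3, 77.0 and 70.1 FPKM in dmd1, against 21.0, 26.2 and 16.4 FPKM in wild type. Whether such neighbours are copies of each other that could exchange reads was not tested.

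Rows next to the doubled genes were called higher more often than rows elsewhere. In identifier order 202 OS rows that are not in the set lie directly beside a gene of it. Of these, 134 were tested, and limma called 24 of them higher (17.9%) and 4 lower, against 2.27% called higher among all tested OS rows outside the set. One step further away it was 5 of 127 (3.94%), and at 10 rows 3 of 128 (2.34%). Beside the 2983 other OS rows at 40 FPKM or more in every dmd1 library, 85 of 3676 neighbours (2.31%) were called higher. The shares come from the same libraries and the same contrast that chose the genes, so they are a description and have no test. In the opposite direction, 30 of 313 neighbours (9.58%) beside the 251 OS rows at least halved in dmd1 were called lower. Among tested OS rows outside that group it was 2.61%. One step further from the halved rows it was 21 of 320 (6.56%), and at 10 rows 11 of 311 (3.54%).

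**Figure D5:**
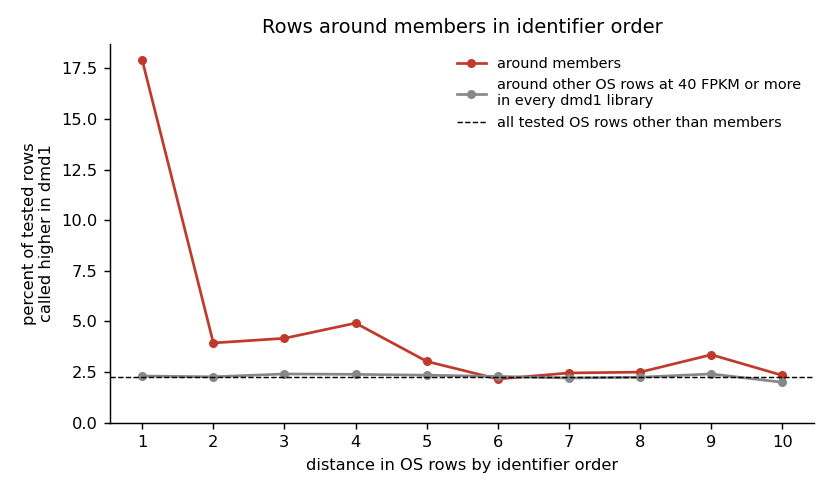
Percent of tested OS rows called higher in dmd1 by limma (y axis) by distance in OS rows, in identifier order (x axis), red around the 104 doubled genes and grey around the 2983 other OS rows at 40 FPKM or more in every dmd1 library, with a dashed line at 2.27% for all tested OS rows outside the set. The red line stands at 17.9% at distance 1 and at 3.94% at distance 2, while the grey line starts at 2.31%.

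The 24 called neighbours belonged to 21 of the 104 genes, and 3 genes had one on either side. Most were low. In dmd1, 16 of the 24 had under 10% of the level of the doubled gene beside them, and 2 had more than that gene. The following 4 were picked after their values were seen. OS08G0545850, beside the abundant OS08G0545800, was at 10.2, 15.1 and 19.9 FPKM in dmd1, against 0.962, 1.21 and 0.659 FPKM in wild type, which is 0.223% of its neighbour's dmd1 mean. OS05G0366800, beside the abundant OS05G0366900, was at 37.0, 34.4 and 41.0 FPKM in dmd1, against 7.47, 11.2 and 6.81 FPKM in wild type. In both, library 3 was the highest in dmd1 and library 2 in wild type, while the abundant genes beside them had library 1 as the highest in dmd1 and library 2 in wild type. Over all 24, the called neighbour and the doubled gene had the same highest dmd1 library in 7, the same highest wild-type library in 16 and both in 5.

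The 2 neighbours above the doubled gene were OS03G0233251 and OS03G0773000. OS03G0233251 was at 601, 442 and 268 FPKM in dmd1, against 74.0, 207 and 67.4 FPKM in wild type. OS03G0773000, beside OS03G0772900, was at 105, 71.2 and 61.2 FPKM in dmd1, against 30.4, 37.0 and 24.1 FPKM in wild type. Both missed the rule because the lowest dmd1 library was under 2 times the highest wild-type library.

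Identifier numbers that do not end in 00 took 6 of the 24 calls, from 20 such neighbours tested, and numbers ending in 00 took 18 of 114 (15.8%). Over all tested OS rows the shares called higher were 2.77% for numbers not ending in 00 and 2.72% for the rest. Reads that run past the end of a gene, or that come from overlapping genes, could be counted for the row beside it, and the sources used here do not give the strand setting of the counting. The part of such reads in these calls was not tested. The number of called neighbours dropped to 13 without dmd1 library 1, 8 without dmd1 library 2, 13 without dmd1 library 3, 9 without wild-type library 1 and 11 without wild-type library 3. In these fits 1.02% to 2.44% of all rows tested were called higher, and 6.11% to 10.0% of the neighbours.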

How the data were processed

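RNA from 6 anther libraries, 3 per genotype, was sequenced. RNA had an integrity number of at least 6.5, per the labels' protocols. The authors deposited 1 table of FPKM values with 94013 rows and 1 column per library. The submitters' processing notes name fastp, HISAT, RSEM and the build IRGSP-1.0, with no versions, annotation or strand setting given in the sources used here. Each column carries the name of its library, and no libraries were identical.

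A count test was not applied, since FPKM values are normalized. Steps in values under 0.3 FPKM put the relative depth of the other libraries at 0.853 to 1.29 times that of wild-type library 1, but only 4.45% to 17.4% of low rows lay on a step, so no reads were recovered.

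The members and lists were chosen with earlier results of these data known. The rule was applied with Python 3.11.15 and pandas 2.3.3. Rows with at least 1 FPKM in at least 3 of the 6 libraries (25474) were tested as log2(FPKM + 1) with limma 3.58.1 in R 4.3.3 (eBayes with trend and robust options, Benjamini-Hochberg adjustment over all rows tested), without a replicate block. The limits of a call were 0.05 for the adjusted p and 1 for the log2 change. All 104 members passed the filter. The fit was also run on data made with known changes and independent noise in each library. Deviations of the deposited libraries are correlated between the genotypes, which that run leaves out, so it does not measure the error of these calls. P-values set the difference between the genotypes against the spread between these libraries.

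Members named are the 12 with the widest gap, the 8 most abundant, the 4 least and 4 most even, the 3 just inside each limit and adjacent members. The sequence features planned were not analysed here, because no sequence matched the identifiers.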

Additional observations from a re-analysis of the deposited data

How the results depend on the processing

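The count of genes meeting the limits moved with the limits themselves. It was 231 with a fold minimum of 1.5 and 38 with 3, 163 with a level minimum of 20 FPKM and 66 with 80 FPKM, and 251 when group means decided. With equal FPKM totals it was 167, with median-of-ratios scaling 89 and with quantile normalization 138 (100 of the 104). Without 1 library it ran from 106 to 167, and it was 177 without dmd1 library 1 and wild-type library 2, an alternative chosen after seeing the data. The median ratio of means was 4.90 with equal totals, 3.89 with median-of-ratios scaling, 3.77 to 4.64 without 1 library and 4.82 without that pair of libraries. The median of highest over lowest dmd1 library was 1.36 and 1.32 under these scalings, and 1.16 to 1.18 without 1 dmd1 library, where fewer libraries give a smaller range by construction.

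In limma, the rows called higher numbered 1498 with equal totals and 251 to 920 without 1 library. Of all calls 63.1% were higher under equal totals, and under median-of-ratios scaling 36.1%. All 104 members were called with a pseudocount of 0.1, OS rows only, equal totals, quantile normalization, the simpler spread model and without wild-type library 2. In those fits 2.79% to 5.86% of all rows tested were called higher. The count was 103 without the filter on low values and 103 with median-of-ratios scaling, 77 to 104 without 1 library and 102 without the pair. Over all rows tested, the shares called higher were 1.79%, 2.66%, 1.02% to 3.71% and 2.47% in these fits. The rule used the same contrast, so nothing is read from the counts of members. OS03G0115800 and OS10G0360600 missed the filter of 3 libraries and were not tested in fits without a dmd1 library, so 102 members were tested there, and all of them were called without the pair. No member changed sign in any of these fits in which it was tested. The rule keeps each member's genotypes apart in every library, so nothing is read from this. Called neighbours numbered 8 to 19 without 1 library, 14 without the pair and 18 to 28 under the other settings apart from the block. As shares of the neighbours tested these were 6.11% to 14.3%, 11.3% and 9.57% to 20.9%.

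With the replicate number as a block, 646 of 25474 rows were called higher (2.54%). Among them were 100 of the 104 members, chosen by the same contrast, and 19 of 134 neighbours (14.2%). Deviations from the genotype means correlated at -0.35, -0.01 and 0.35 between the genotypes for numbers 1, 2 and 3. Deviations within a genotype are bound to each other, so these values cannot show whether the numbers pair the libraries. The number of libraries limits the precision of each value, since 3 per genotype were measured.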
